A study of Arabidopsis thaliana with 14 samples.

Results

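The response of unprimed Arabidopsis thaliana rosettes to the first 30 min of high light was read from 2 RNA-seq libraries, C30L and C0. Its members are the genes with a mean of at least 2 FPKM (read fragments scaled to 1 kilobase of transcript and to 1 M mapped fragments) over the 14 libraries of the series, which were 15074 of 27861 genes. Of these, 15063 had a value above 0 in both libraries and so a log2 ratio of C30L to C0, and 11 were at 0 in C0. The gene just inside the minimum was MDO1, with 2.32 FPKM in C0 and 1.39 in C30L, and the one just outside was WAKL7, with 2.7 and 2.58. All plants were Col-0, the common laboratory accession, grown at 20 °C in 10 h of light and 14 h of darkness, and were 28 d old when those to be primed spent 24 h at 4 °C. The control plants described here stayed at 20 °C for that day and for the 5 d that followed. C0 was harvested at growth light of 100 µmol m-2 s-1, and C30L after 30 min at 800 µmol m-2 s-1 from heat-filtered lamps at 20 °C. The other libraries used beside them are C60L and C120L (60 and 120 min of high light), C30C (30 min at 4 °C in growth light), and P0 and P30L, the primed counterparts of C0 and C30L. Each library came from a pool of at least 5 rosettes and each condition has 1 library, so no ratio has a biological error and no p-value can be given. No library was kept in growth light for the same 30 min, so light, handling and the later hour of the day cannot be told apart. The leaf temperature under the lamps was not among the values used here, so its part cannot be told apart either.

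When light exceeds what photosynthesis can use, chloroplasts form reactive oxygen species and the leaf adjusts within minutes. Heat shock transcription factors (HSFs) bind heat shock elements, runs of alternating GAA and TTC units, and switch on chaperones that hold or refold damaged proteins. They are best known from heat, and HSFA2 is also known as an early target of high light in Arabidopsis. Phytochromes and cryptochromes sense the colour and amount of light and act through the PIF transcription factors, while the hormones abscisic acid, jasmonate, auxin and cytokinin shape the responses that follow.

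The upstream regions of 4 strongly raised heat genes show such elements, and that of BAG6 shows the CACGTG core of the G-box, a site for bZIP and bHLH factors. Each sequence is the 250 bases before the gene start in the TAIR10.1 annotation of RefSeq, in the sense of the gene. Capitals mark every run of 3 alternating GAA and TTC units spaced by 2 bases in the first 4, and the CACGTG in the last. HSFA2 and HSP17.4 also hold CACGTG, which is left unmarked there. The 250 bases of HSFA2 lie at chr2:11135374-11135623 (+), those of HSP17.4 at chr3:16984868-16985117 (-), of AT1G53540 at chr1:19980049-19980298 (+), of HSFA7A at chr3:19264891-19265140 (+) and of BAG6 at chr2:18985883-18986132 (+).
HSFA2: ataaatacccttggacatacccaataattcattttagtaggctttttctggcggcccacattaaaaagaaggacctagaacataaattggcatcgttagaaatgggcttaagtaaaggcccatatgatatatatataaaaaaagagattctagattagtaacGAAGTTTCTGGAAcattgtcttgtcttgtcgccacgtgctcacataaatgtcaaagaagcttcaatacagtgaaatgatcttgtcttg
HSP17.4: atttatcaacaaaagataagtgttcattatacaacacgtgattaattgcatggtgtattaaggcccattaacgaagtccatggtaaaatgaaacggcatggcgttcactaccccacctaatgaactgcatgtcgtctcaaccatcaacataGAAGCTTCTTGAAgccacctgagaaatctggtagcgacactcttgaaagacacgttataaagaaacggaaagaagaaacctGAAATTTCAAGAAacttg
AT1G53540: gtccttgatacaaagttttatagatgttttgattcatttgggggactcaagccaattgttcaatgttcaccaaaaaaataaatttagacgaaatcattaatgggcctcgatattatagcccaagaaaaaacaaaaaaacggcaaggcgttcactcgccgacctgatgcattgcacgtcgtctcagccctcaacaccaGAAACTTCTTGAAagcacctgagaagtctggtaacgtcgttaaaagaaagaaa
HSFA7A: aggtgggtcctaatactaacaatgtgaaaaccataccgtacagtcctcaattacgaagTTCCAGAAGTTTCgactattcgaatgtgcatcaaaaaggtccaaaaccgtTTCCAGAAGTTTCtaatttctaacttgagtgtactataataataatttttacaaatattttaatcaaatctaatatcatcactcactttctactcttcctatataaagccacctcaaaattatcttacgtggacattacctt
BAG6: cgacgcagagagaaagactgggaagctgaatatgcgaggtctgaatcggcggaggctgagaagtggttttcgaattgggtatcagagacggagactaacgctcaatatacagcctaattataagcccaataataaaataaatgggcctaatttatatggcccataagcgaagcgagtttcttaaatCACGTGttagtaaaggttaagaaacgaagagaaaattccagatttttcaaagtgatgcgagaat

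The element nearest to the gene start began 88 bases before it in HSFA2, 18 in HSP17.4, 53 in AT1G53540 and 142 in HSFA7A. HSP17.4 and HSFA7A each held 2 such runs, and the others 1. They were picked for carrying the motif and for their ratios, so they stand as examples only.

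Most genes changed little in 30 min. The median log2 C30L/C0 was -0.07, the SD over genes was 0.54, and 88.8% of the genes lay within 1.5-fold of C0. Past 1.5-fold, the threshold of the study, 648 genes rose (4.3% of those with a ratio) and 1041 fell (6.91%). The rises reached further than the falls. At 2-fold, 322 genes rose and 314 fell. At 4-fold the numbers were 124 and 39, at 16-fold 37 and 5, and at 64-fold 12 and 0.

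**Figure D1:**
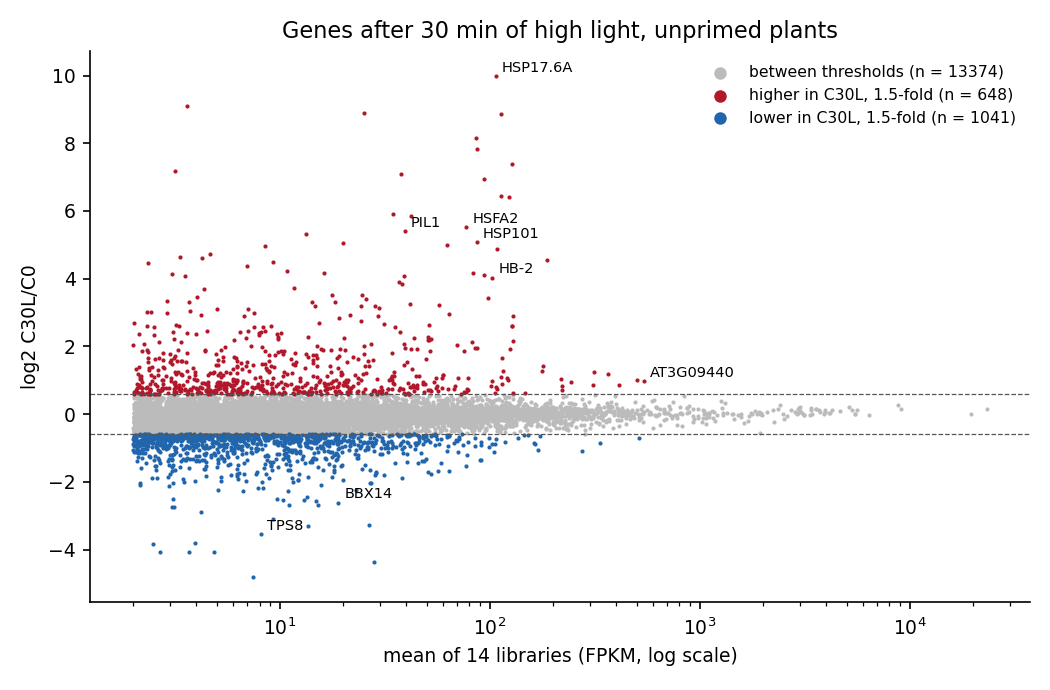
Each point is 1 gene, with its mean over the 14 libraries in FPKM on a log x axis and log2 C30L/C0 on the y axis, and the dashed lines are 1.5-fold. The 648 red genes reach up to 9.99 on the log2 scale (HSP17.6A), while few of the 1041 blue genes pass 4-fold, and the most abundant transcripts lie close to 0.

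The whole-series facts that bear on these ratios are few. The depth read from the steps of the FPKM values was 24.2 M fragments in C0 and 27.7 M in C30L, within the range of 22.5 M to 33.9 M over all libraries. The 8 reference genes of the study had log2 ratios between -0.10 and 0.13. The defining leaf transcripts were high in both libraries, with RBCS1A, a small subunit of Rubisco, at 22446 FPKM in C0 and 24888 in C30L, whereas none of the root or flower markers reached a mean of 2 FPKM. Of the 5 guard cell markers, KAT1 rose from 7.03 to 19.9 FPKM and MYB60 fell from 14.4 to 8.94, and none of the 4 phloem markers passed the threshold. In whole rosettes, fewer cells of a type and less RNA per cell cannot be told apart.

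Counting error was small against the large ratios but not against the threshold. For genes with a mean of 2 to 5 FPKM, about 144 fragments stood behind the median C0 value and the 95% counting interval reached a median of 0.34 to either side on the log2 scale. For genes at 100 FPKM or more it was 0.05. The share of genes that fell decreased from 11.3% in the lowest class to 1.48% in the highest, and that of genes that rose from 5.74% to 3.55%. The interval, an exact binomial one that covers counting error only, lay wholly beyond 1.5-fold for 389 of the 644 raised genes with an annotated length and for 496 of the 1038 lowered ones.

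Genes for heat shock proteins formed the leading group of the rise. Small heat shock proteins, which bind unfolding proteins without ATP, rose in 12 of the 13 members of their list with a ratio, with a median log2 ratio of 6.42 against -0.07 over all genes, and none fell. With 1 FPKM added to both values the median was 4.32. HSP17.6A stood at 0.09 FPKM in C0 and at 91.6 in C30L, a log2 ratio of 9.99 with a counting interval of 8.08 to 12.98 that is wide because the C0 value rests on a few fragments. AT1G07400, an HSP20-like chaperone, went from 0.96 to 162 FPKM, which is 169-fold. AT1G59860 of the same class went from 1.80 to 221 FPKM, or 123-fold. These sequences are close relatives, and how the counting shared reads between near-identical copies affects each one is uncertain. The exception was AT4G21870, with 1.76 FPKM in C0 and 1.4 in C30L.

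A further 3 members of this list were at 0 before the light. HSP23.6-MITO, the mitochondrial small heat shock protein, was at 0 in C0 and at 17.7 FPKM in C30L. That is 149-fold higher when C0 is set to a floor of 3 fragments. On the same floor ATHSP22.0 was 28.7-fold higher, with 3.44 FPKM. HSP21, the chloroplast form, reached only 1.34 FPKM and was 10.6-fold higher. With counting error in C30L included, the lower ends of the log2 intervals were 6.92, 4.52 and 3.02 in the same order. All 3 were higher still at 60 min, at 78.7, 39.6 and 19.5 FPKM respectively.

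Larger chaperones and their helpers rose in 16 of 26 members and fell in none, with a median log2 ratio of 1.02. Hop3, a co-chaperone that links HSP70 and HSP90, had the largest ratio, from 0.33 to 45.2 FPKM (log2 7.10). BAG6, a co-chaperone with a BAG domain, rose from 1.24 to 72.2 FPKM (5.86). HSP101, the ClpB-type disaggregase required for acquired thermotolerance, rose from 4.31 to 146 FPKM, with a log2 ratio of 5.08 and a counting interval of 4.92 to 5.24. HSP90.1 rose from 4.18 to 122 FPKM and HSP70 (AT3G12580) from 10.6 to 252 FPKM. The constitutive forms moved less: HSP81-2 rose from 213 to 510 FPKM (1.26), and HSC70-1 had 1318 FPKM in C0 and 1667 in C30L (0.34), inside the threshold. The organelle forms differed. The HSP70s cpHsc70-1, cpHsc70-2 and mtHsc70-1 and the chloroplast disaggregase CLPB3 also stayed inside it, with log2 ratios of 0.25, 0.33, 0.21 and 0.41. The mitochondrial HSP70 MTHSC70-2 and CLPB4, a relative of CLPB3, rose, with 1.95 and 1.93.

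In the list of heat factors, which holds the HSFs, 8 of 15 members rose and none fell, with a median log2 ratio of 0.84. HSFA2 rose from 5.54 to 254 FPKM, a log2 ratio of 5.52 with a counting interval of 5.33 to 5.71. HSFA7A rose from 1.65 to 54.9 FPKM (5.06), and MBF1C, a transcriptional coactivator of the heat response, from 12.9 to 232 FPKM (4.16). The class B members, known as repressors, rose less, with AT-HSFB2B at 2.60, HSFB2A at 1.58 and HSF4 (HSFB1) at 1.02 on the log2 scale. HSFA1D, one of the constitutive master factors, went from 3.1 to 4.54 FPKM (0.55), inside the threshold.

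Most chaperones of the endoplasmic reticulum stayed inside the threshold. Only ERO1, an oxidase for disulphide formation, passed the threshold among 14 members, from 1.63 to 2.77 FPKM, and its counting interval was 0.35 to 1.21. BIP1 and BIP2, the HSP70s of this compartment, had log2 ratios of 0.16 and 0.02. The list median was 0.07.

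**Figure D2:**
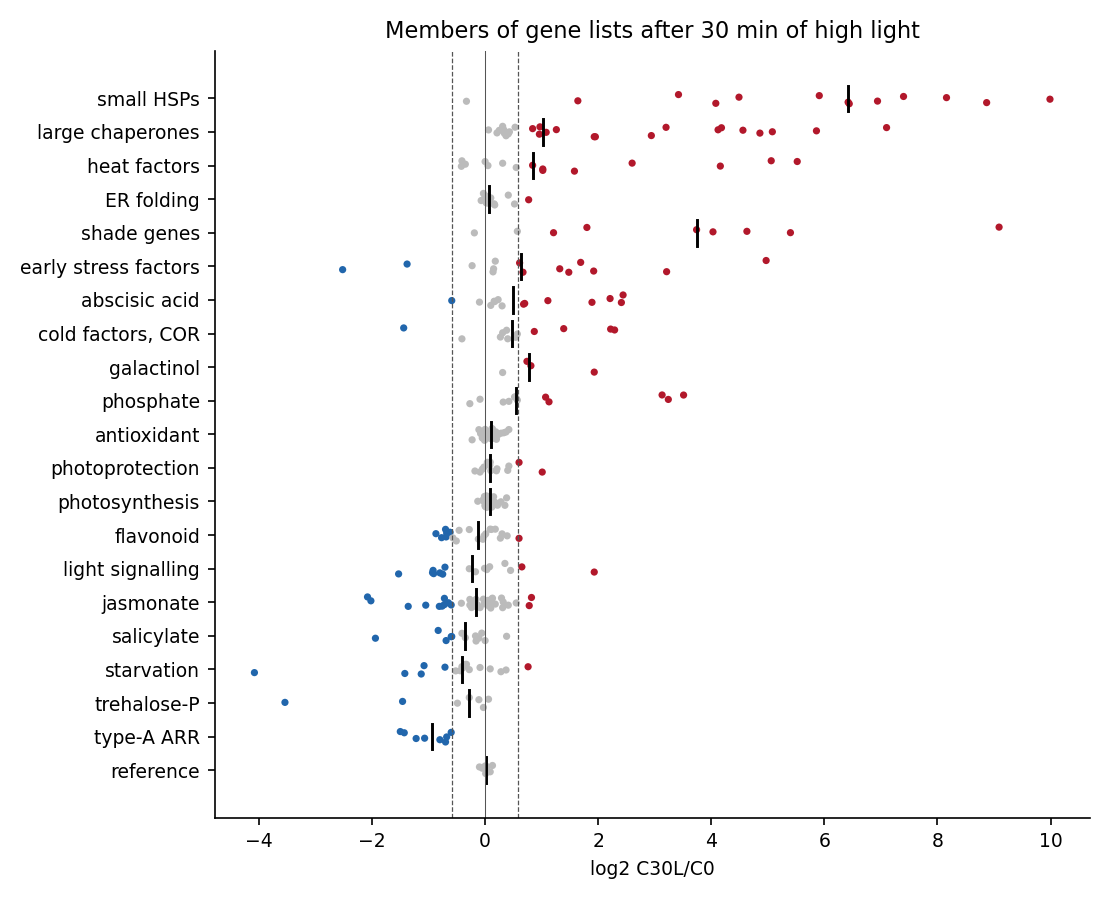
Each point is 1 member of a gene list, placed by its log2 C30L/C0, with red for 1.5-fold higher, blue for 1.5-fold lower and a black bar at the list median. Small heat shock proteins (median 6.42) and shade genes (3.74) lie far to the right, all 8 type-A ARR genes to the left (-0.94), and photosynthesis, antioxidant and reference genes around 0.

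A second group with large rises is best known from shade. These genes are normally induced when the ratio of red to far-red light drops, through PIF factors. In C30L, 7 of 9 members rose and none fell, with a median of 3.74, which was 1.8 when members under 0.5 FPKM in C0 or P0 were left out. PIL1, a bHLH protein, rose from 1.88 to 79.6 FPKM (log2 5.40, counting interval 5.04 to 5.77). The homeodomain factor HB-2 rose from 17.2 to 282 FPKM (4.03) and HB4 from 0.54 to 13.4 FPKM (4.63). HFR1, which restrains PIFs, rose from 1.85 to 24.7 FPKM (3.74). YUC9, an enzyme of auxin synthesis, was at 0.02 FPKM in C0, less than can be measured reliably, and at 10.9 in C30L. In C30C, PIL1 stood at 1.63 FPKM and HB4 at 0.28. The spectrum of the lamps was not among the values used here.

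The light signalling genes themselves moved in both directions. PHYB, the red-light photoreceptor, rose from 16.6 to 63.5 FPKM (log2 1.93), and HY5, a bZIP factor of photomorphogenesis, from 13.3 to 20.8 (0.65). Transcripts of 7 of the 16 members fell. Among them were the blue-light receptors CRY1, from 48.0 to 25.4 FPKM (-0.92), and CRY2, from 22.2 to 13.2 (-0.75). The PIF genes PIL5 (PIF1), PIL6 (PIF5), PIF4 and PIF7 fell with log2 ratios of -1.53, -0.93, -0.91 and -0.80. All 7 were lowest at 120 min among the 4 control libraries of the light course.

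B-box zinc finger factors, which act with HY5 and CONSTANS-type partners, split as well. BBX31 rose from 7.70 to 36.8 FPKM (2.26), BBX29 from 9.83 to 34.5 (1.81) and BBX32 from 13.5 to 44.4 (1.72). BBX14 fell from 33.0 to 5.41 FPKM (-2.61) and BBX27 from 14.7 to 5.81 (-1.34). In all, 4 of 15 rose and 3 fell.

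Early stress factors rose in 8 of 14 members. DREB2A, a drought and heat factor, rose from 0.66 to 20.7 FPKM (4.97). The zinc finger genes ZAT6, STZ (ZAT10) and RHL41 (ZAT12) rose from 4.57 to 42.2, from 9.33 to 35.2 and from 2.80 to 7.79 FPKM. RRTF1, an ERF factor of redox signalling, went the other way, from 16.2 to 2.82 FPKM (-2.52), and was at 15.3 FPKM again at 60 min. The fall of RAV1 was from 10.1 to 3.89 FPKM (-1.38).

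Genes of abscisic acid, the hormone of water stress, rose in 7 of 14 members. NCED3, which catalyses the rate-limiting step of its synthesis, rose from 2.14 to 11.3 FPKM (2.41). The phosphatase genes HAI1, HAI2 and ABI1, negative regulators that the hormone induces, had log2 ratios of 2.44, 2.21 and 1.11. CYP707A1, a catabolic enzyme, fell from 1.55 to 1.03 FPKM (-0.59), with a counting interval of -1.09 to -0.07. Its relatives did not fall past the threshold. CYP707A2 and CYP707A3 had log2 ratios of -0.10 and 0.10, and CYP707A4, below the mean of 2 FPKM, went from 0.50 to 2.19 FPKM.

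In the galactinol list 3 of 4 members rose, all of them galactinol synthases, the entry to raffinose sugars. GolS2 rose from 47.5 to 181 FPKM (1.93), and GolS1 and GolS3 had 0.81 and 0.74. The other member, AT5G40390, had 0.31, inside the threshold. Of 12 cold-linked genes, factors and their COR targets, 4 rose and 1 fell. LTI78, a stress protein of the COR group, rose from 82.9 to 151 FPKM (0.87). The factors CBF1, CBF2 and DREB1A rose to between 1.31 and 9.53 FPKM, and DDF1 fell from 1.92 to 0.71 FPKM (-1.44). CBF2 went from 2.04 to 9.53 FPKM in high light and stood at 71.7 FPKM in C30C, the cold library of the same time.

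Transcripts for photosynthesis did not pass the threshold in any of 32 members, whose log2 ratios lay between -0.13 and 0.38. The 28 antioxidant genes lay between -0.23 and 0.42, again with none past it. Over all genes 4.3% rose and 6.91% fell, and at a mean of 100 FPKM or more 3.55% and 1.48%. Lists of this size with none past the threshold are thus not far from the shares among abundant genes. APX2, a cytosolic ascorbate peroxidase known as a high-light marker, was below the mean of 2 FPKM, with 0 in C0, 0.25 in C30L and 3.82 in C60L. The early light-inducible proteins ELIP1 and ELIP2 had log2 ratios of 0.40 and 0.42, from 74.0 to 97.7 and from 33.1 to 44.4 FPKM. Within photoprotection, FIB, a plastoglobule fibrillin, rose from 261 to 524 FPKM (1.01) and BETA-OHASE 2, of xanthophyll synthesis, from 42.5 to 64.5 (0.60). Among 19 genes of chlorophyll metabolism CH1, which makes chlorophyll b, fell from 224 to 147 FPKM (-0.61).

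Of 21 genes of flavonoid synthesis and its control, 6 fell and 1, LBD38, rose. The fallen ones were 4 phenylpropanoid genes at the entry of the pathway and the regulators EGL3 (-0.68) and MYB11 (-0.62). PAL1 fell from 98.5 to 61.3 FPKM (-0.69), PAL2 from 92.2 to 54.1 (-0.77) and 4CL3 from 82.9 to 45.5 (-0.87), and 4CL1 had a ratio of -0.70. C4H of the same steps had -0.28, inside the threshold. Chalcone synthase (TT4), the committed enzyme, had 682 FPKM in C0 and 674 in C30L.

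The deepest falls included regulators of sugar status, cytokinin and growth. AT5G61590 (DEWAX), an ERF that represses wax synthesis, fell from 16.8 to 0.82 FPKM (log2 -4.35, counting interval -4.98 to -3.83). AT1G80440 (KMD1), an F-box protein that targets type-B response regulators of cytokinin signalling for degradation, fell from 7.59 to 0.45 FPKM (-4.08). TPS8, a trehalose-6-phosphate synthase-like protein, fell from 14.8 to 1.27 FPKM (-3.54). TPS11 of the same list fell from 7.32 to 2.66 (-1.46), and 2 of the 7 members fell in all.

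Genes known from dark and sugar starvation fell in 5 of 17 members and rose in 1, beside 6.91% and 4.3% of all genes. The other 11 stayed inside the threshold. BXL1, a beta-xylosidase, fell from 16.5 to 7.79 FPKM (-1.08) and DIN10 from 2.28 to 1.04 (-1.13). DIN9 rose (0.76), while DIN4 (0.28) and AT4G35770 (0.09) were among those inside the threshold. ATG8E, which builds autophagosomes, was among the 15 largest falls, from 10.4 to 2.18 FPKM (-2.25).

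Type-A response regulators, rapid targets and inhibitors of cytokinin signalling, fell in 8 of 8 members, with a median of -0.94. ARR9 fell from 28.2 to 9.96 FPKM (-1.5), ARR7 from 35.9 to 13.3 (-1.43), RR5 from 9.05 to 3.88 (-1.22) and ARR6 from 11.2 to 5.32 (-1.07). In C30C, ARR7 stood at 78.8 FPKM and RR5 at 22.1, above their C0 levels.

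In the touch and wall list of 19 members, 3 genes of the growing cell wall fell and the calmodulin-like CML23 rose, from 1.94 to 5.84 FPKM (1.59). The falls were those of TCH4 from 25.2 to 6.87 FPKM (-1.88), EXPA8 from 46.2 to 20.3 (-1.18) and XTH16 from 14.6 to 6.48 (-1.17). EXO and PHI-1, related proteins of growth and brassinosteroid response, fell with ratios of -2.52 and -3.29. Of 39 SAUR-like auxin genes, a family named from the table's descriptions, 17 fell and 6 rose. The members SAUR19, SAUR22 and SAUR23 were among those that rose, from 1.08 to 6.48, from 1.91 to 12.4 and from 3.54 to 11.1 FPKM.

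Among clock genes 4 of 22 with a ratio rose and 2 fell, beside 4.3% and 6.91% of all genes. LHY, a morning factor, fell from 119 to 56.3 FPKM (-1.08), and PRR9, which follows it, rose from 34.2 to 65.9 (0.95). Their relatives CCA1 and PRR7 did not move, with log2 ratios of 0.0 and 0.02. LHY was at 91.2 FPKM in C30C.

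Genes of jasmonate, the wound hormone, fell in 10 of 37 members and rose in 2 at this time. JAZ7 fell from 20.2 to 4.77 FPKM (-2.08) and JAZ6 from 136 to 65.6 (-1.05), both repressors that the hormone induces. AOC3 of its synthesis rose from 7.85 to 13.9 (0.82), while LOX2 stood at 251 and 273 FPKM (0.12). Among the 10 that fell, 9 had their lowest value of the light course at 30 min, and LOX2 reached 1005 FPKM at 60 min and 2048 at 120 min. In the salicylate list 5 of 13 fell and none rose, with PR1 from 5.65 to 1.47 FPKM (-1.94) and WRKY70 from 39.4 to 22.1 (-0.83).

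In the remaining lists few genes passed the threshold, past which 4.3% of all genes rose and 6.91% fell. Of the aliphatic glucosinolate genes 3 of 20 fell and none rose, with GSTF11 from 16.7 to 8.02 FPKM (-1.06). Of 14 indolic ones 2 fell and CYP81F2 rose, from 1.53 to 5.3 FPKM (1.79). Of 19 auxin genes 3 rose, the SAURs named above, and 3 fell, with IAA1 from 18.7 to 8.07 FPKM (-1.21). Of 6 genes of alternative respiration BCS1 rose, from 4.1 to 7.8 FPKM (0.93), and none of 6 plastid sigma factors passed 1.5-fold. The senescence marker SAG13 fell from 5.24 to 3.11 FPKM (-0.75), and SAG12 was at 0.15 and 0.

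Large gene families, taken by words in the table's descriptions, differed in how many members moved. Of 305 genes named as ribosomal proteins 2 rose and none fell, and none of 73 ABC transporters did either. Genes with "kinase" in their description, not all of them protein kinases, fell in 73 of 803 members (9.09%) and rose in 15 (1.87%). The shares of all genes with a ratio were 6.91% and 4.3%. Genes with leucine-rich repeats fell in 17 of 121 and rose in 3. AP2/ERF factors rose in 15 and fell in 12 of 56.

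Raised and lowered genes shared features of structure. The median number of exons was 2 in both, against 5 over all genes with a model. Genes with 1 exon made up 33.7% of the raised, 27.7% of the lowered and 12% of all. The median transcript length was 1386 bases for the raised, 1593 for the lowered and 1661 for all.

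The raised genes also more often held certain motifs in their upstream bases, counted as plain strings on both strands. A heat shock element of 3 units was present in 2.64% of raised, 0.577% of lowered and 0.472% of all genes. In the 500 bases before the start codon, a window that takes in the 5′ untranslated part, the shares were 5.55%, 1.32% and 1.5%, and the element was present in 12 of the 34 genes raised at least 16-fold (35.3%), HSFA2, HSP70, HSP90.1 and Hop3 among them. Before the gene start it was present in 6 of 37 such genes (16.2%) and in none of the 16 raised large chaperones. CACGTG, the palindrome shown for BAG6, was present before the gene start in 14.1% of raised, 6.35% of lowered and 7.69% of all genes. The strings ACGTGG or ACGTGT, cores of the abscisic acid response element that overlap with it, were found in 28.1%, 15.9% and 17.3%. AAATATCT, the evening element of clock genes, was found in 8.85%, 4.91% and 5.02%. None of the 7 raised shade genes held CACGTG in either window. A match is a string and not a measured binding site.

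The levels at later times show when each group was highest among C0, C30L, C60L and C120L. Of the 15 raised small heat shock genes, including those at 0 in C0, 14 were highest at 60 min, as were 15 of 16 large chaperones. Of the 8 raised heat factors 5 were highest at 30 min. HSFA2 stood at 254, 121 and 5.26 FPKM after 30, 60 and 120 min, and HSP101 at 146, 324 and 7.76. PIL1 stayed up, at 79.6, 102 and 66.5 FPKM. Of the 7 raised abscisic acid genes 5 were highest at 120 min, with ABI1 at 62.2 FPKM.

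**Figure D3:**
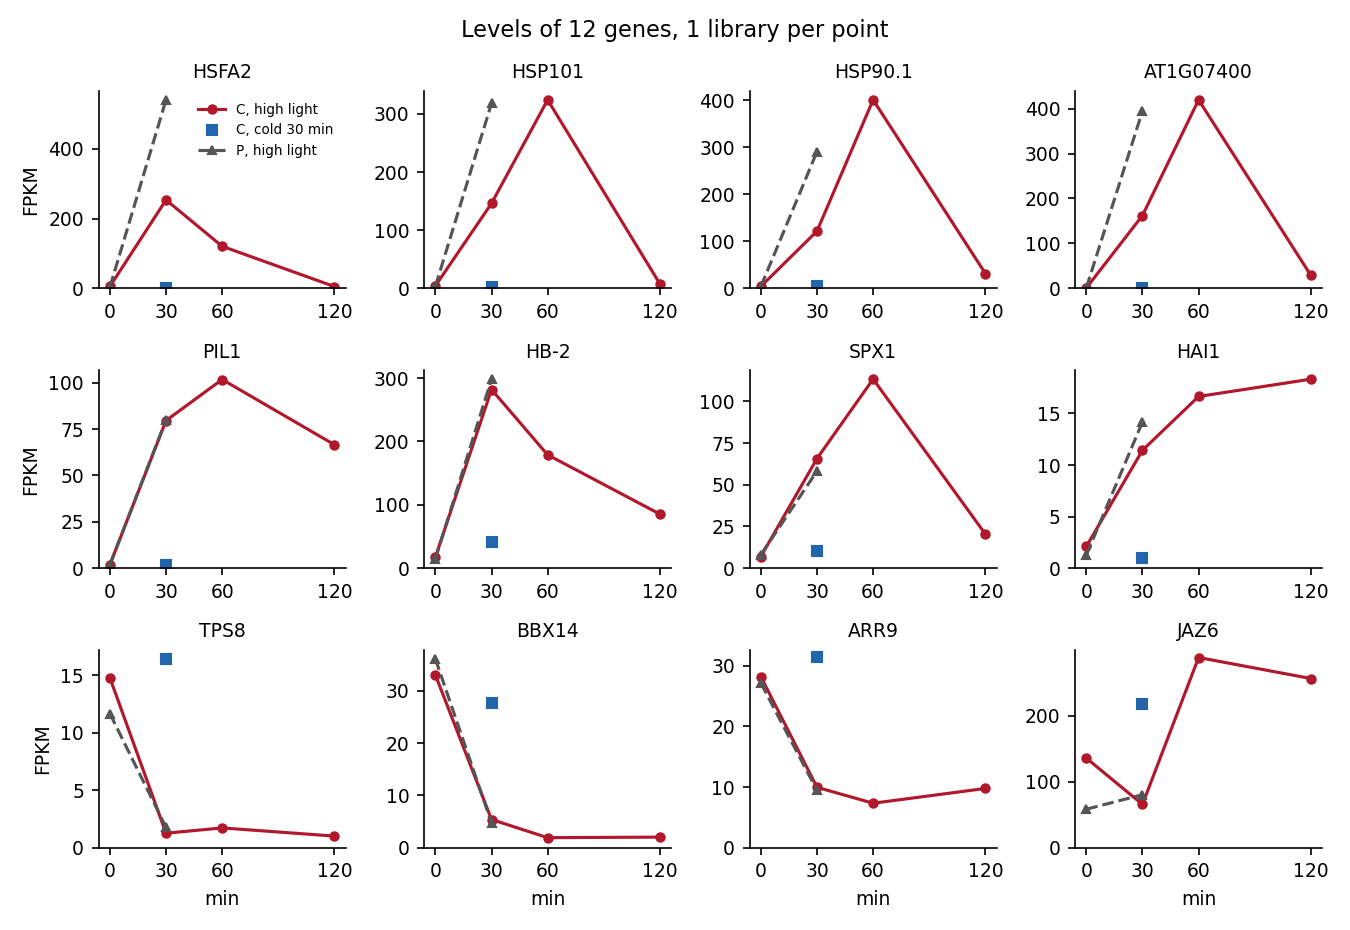
FPKM (y axis) of 12 genes against minutes of treatment (x axis), 1 library per point, with control plants in high light in red, control plants after 30 min of cold as a blue square and primed plants at 0 and 30 min of high light as grey triangles. HSFA2 was highest at 30 min (254 FPKM in control plants) and HSP101 at 60 min (324), and TPS8, BBX14 and ARR9 were low from 30 min on.

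The same contrast in primed plants, P30L against P0, shares no library with C30L and C0. Of 15058 genes with both ratios, 1262 rose in primed plants (8.38%) and 1076 fell (7.15%). Of the 646 raised in control plants among them, 557 rose in primed plants too and 7 fell, and of the 1038 lowered, 662 fell and 42 rose. Pearson's r between the log2 ratios was 0.81 across these genes, which are not independent replicates.

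Heat genes had larger ratios in primed plants. Of 34 members of the 3 heat lists raised in control plants with both ratios, 33 had the larger log2 ratio in primed plants, by a median of 1.27. HSFA2 went from 3.65 to 540.1 FPKM in primed plants (7.21), against 5.54 to 254 in control plants, so it started lower and ended higher. HSP101 went from 3.37 to 318 FPKM (6.56), against 4.31 to 146. A larger ratio in primed plants was common among raised genes outside these lists too: it was found in 428 of 612, with a median gap of 0.25, and among them in 6 of the 7 raised shade genes, with a median gap of 0.26. The depth of P30L was the highest of the series at 33.9 M fragments, and the part of depth and of plant pools in this gap was not tested.

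Values of the jasmonate list were not alike in the 2 sets of plants, a difference that was not tested. Its median log2 ratio was -0.16 in control and 0.85 in primed plants, where 24 of 37 members rose and 1 fell. The levels before the light differed as well. P0 lay past 1.5-fold below C0 in 22 of the 37 members and above it in 1, while 2.85% of all genes lay below. The list median of the log2 ratio was -0.8 for P0 to C0 and 0.38 for P30L to C30L. JAZ6 had 136 FPKM in C0 against 58.4 in P0 but 65.6 in C30L and 80.3 in P30L. TIFY10B (JAZ2) had 78.8 and 33.5 FPKM before and 44.9 and 60.4 after 30 min. C30L and P30L thus lay closer to each other than C0 and P0 did for these genes, and with 1 library each it was not tested which of the 4 stands apart. The median of the salicylate list was -0.35 in control and 0.81 in primed plants.

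**Figure D4:**
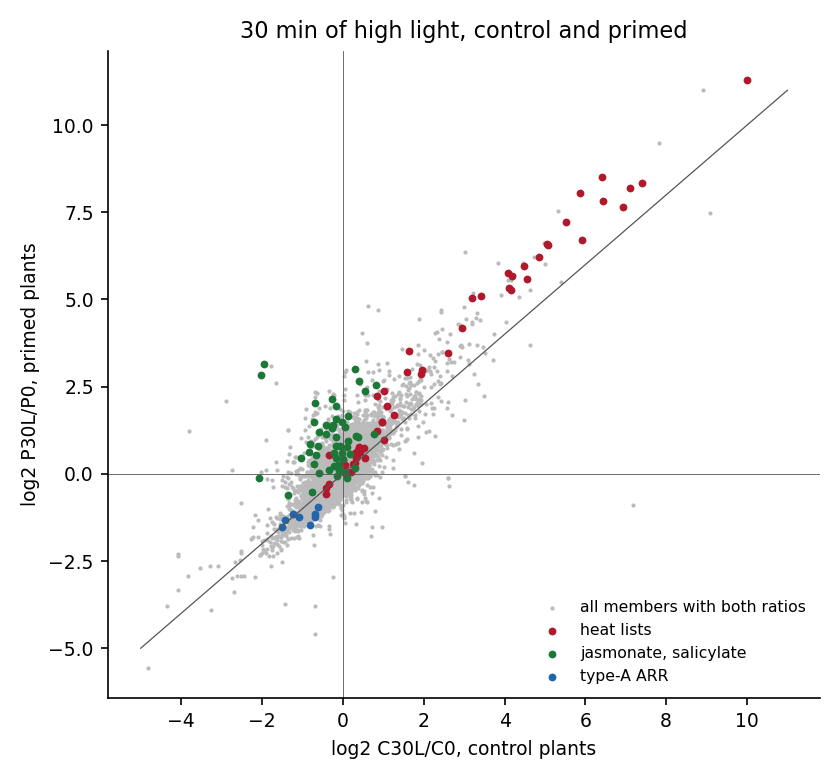
Each point is 1 gene with log2 C30L/C0 of control plants on the x axis and log2 P30L/P0 of primed plants on the y axis, and the diagonal marks equal ratios. Genes of the heat lists (red) lie above the diagonal (33 of 34 raised ones), jasmonate and salicylate genes (green) mostly above 0 on the y axis only, and type-A ARR genes (blue) near the diagonal below 0.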

How the data were processed

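Total RNA of pooled rosettes was sequenced as paired-end mRNA libraries. The authors removed low-quality reads, aligned the rest to TAIR10 (with Bowtie2 and RSEM by the study's methods, with HISAT2 2.1.0 by the submitters' processing notes) and deposited 1 table of FPKM values, which were used as given, with no scaling and no pseudocount. Gene names came from the table, and gene positions, lengths and exons came from the RefSeq TAIR10.1 annotation, which matched 27768 of 27861 codes. Genes averaging 2 FPKM or more across the 14 libraries were kept, and a ratio past 1.5-fold counted as raised or lowered. "Rose" and "fell" refer to this threshold alone, since 1 library per condition allows no test. Fragments per library were read from genes of 1 transcript and 400 to 700 bases that were at 0 in 7 to 13 libraries, as the median of the values that 1 fragment would give. With them, FPKM was turned into fragments, and exact binomial 95% intervals of the ratio were computed, which cover counting error only.

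Gene lists (30, the phosphate list among them, and 6 marker lists) and the members were chosen with earlier results of these data known, and the phosphate list after its values were seen. Named are the 15 largest ratios in each direction among genes with at least 0.5 FPKM in both libraries and 5 in 1 of them (some are given as examples only), up to 6 members a list and direction, known markers, genes at 0 in C0, and the 3 largest opposite ratios in primed plants. Further genes are named where a sentence on a family or a level needs them. The count of genes past 1.5-fold was tested on simulated data with known changes put in. The depth estimate and the counting intervals were not part of that test. Other choices tried were 2-fold as threshold, adding 1 FPKM to both values, other filters and 2 scalings. Python 3 with pandas, NumPy and SciPy was used.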

Additional observations from a re-analysis of the deposited data

Results flagged for a closer look

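In 49 of 15058 genes (0.325%) the ratio passed 1.5-fold in opposite directions in control and primed plants, 42 of them lower in control and higher in primed plants and 7 the other way. The difference between the 2 sets of plants was not tested, since each value is 1 library. The ratios share C0 and P0 with the comparison of the starting levels, in which P0 lay past 1.5-fold below C0 in 34 of these 49 genes (69.4%) and in 2.85% of all genes. The gap on the log2 scale was largest for AT5G01215, a non-coding RNA, at 8.05. It stood at 0.02 FPKM in C0, 2.88 in C30L, 3.73 in P0 and 2.03 in P30L, so its gap rests on the C0 value. PR1, a marker of salicylate defence, followed with 5.09, at 5.65 and 1.47 FPKM in control plants and 6.04 and 53.5 in primed plants. The non-coding RNA AT3G03145 had a gap of 5.02, at 6.81 and 0.49 FPKM in control and 0.90 and 2.1 in primed plants. The use of strand in counting is not given in the sources used here, so reads of genes on the opposite strand cannot be told apart from those of the 2 non-coding RNAs.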

How the results depend on the processing

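The counts of raised and lowered genes (648 and 1041) depend on the cutoffs. They were 322 and 314 at 2-fold, 306 and 406 with a mean of at least 10 FPKM, and 1890 and 2880 with no filter on the mean. They were 389 and 496 where the counting interval had to lie past 1.5-fold, an alternative chosen after seeing the data. A pseudocount of 1 FPKM, a further minimum of 0.5 FPKM in C0 and P0, and both scalings kept each count within 1.5 times. The share of lowered genes with a heat shock element before the gene start was 0.577% at 1.5-fold and 1.6% at 2-fold, which is 5 of 313 genes. Of 170 named or listed genes past 1.5-fold, none changed direction under an alternative that kept it, 59 fell short of the 2-fold threshold, 17 fell short with the pseudocount and 12 with scaling to the median ratio. List medians moved as well. For shade genes the median of 3.74 was 1.8 with the minimum of 0.5 FPKM in C0 and P0, 2.58 with no filter and 3.17 with the pseudocount. For small heat shock proteins 6.42 became 4.32 with the pseudocount. For heat factors 0.84 became 0.56 with the pseudocount and 0.55 with no filter, both inside 1.5-fold, and 4.16 with a mean of at least 10 FPKM. For early stress factors 0.64 became 0.55 with the pseudocount and 0.18 with that mean. The median for abscisic acid genes, 0.49, was 0.68 with no filter, and that for phosphate genes, 0.55, was 0.8 with that mean. Low C0 values leave ratios uncertain: YUC9, HSP17.6A and AT1G53540 stood below 0.1 FPKM in C0. No paired analysis was possible because each condition has 1 library.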

Other observations

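Genes of the phosphate starvation response, which plants use to save and take up phosphate, included some of the larger rises. This list was chosen after its values were seen, so its counts are a description. Of 12 members 5 rose and none fell. SPX1, a phosphate sensor protein, rose from 6.96 to 65.7 FPKM (log2 3.24), PAP17, an acid phosphatase, from 6.96 to 61.0 (3.13), and SRG3 (GDPD1), a phosphodiesterase of lipid turnover, from 3.43 to 39.2 (3.51). SPX2 rose from 8.42 to 17.7 FPKM (1.07). The ratios in primed plants were 2.86, 3.15, 3.46 and 1.01 in the same order. At 30 min of cold SPX1 stood at 10.2 FPKM and PAP17 at 9.27. Listed genes below the mean of 2 FPKM varied: IPS1, SPX3 and PHT1;1 stayed below 0.1 FPKM in C0 and C30L, PLDP2 had 0.52 and 1.19 FPKM, and PHT1;4 had 0.49 and 0.80. The lipid genes SQD1 and SQD2 had ratios of 0.52 and 0.54. The string GNATATNC, the core of the site for the regulator PHR1, was present in the 500 bases before the start codon of 9 of the 12 members and of 8.27% of all genes. In the 250 bases before the gene start it was present in 3 of the 12 and in 5.36% of all.

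Of the 14 genes of folding in the endoplasmic reticulum, of which only ERO1 passed 1.5-fold, 12 held ACGTGG or ACGTGT in the 500 bases before the start codon, against 25.6% of all genes.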
